A study of Mus musculus with 4 samples.

Results

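Heterotrimeric G protein subunits and regulators of G protein signalling (RGS proteins) were compared between 2 populations of retinal interneurons. The list holds 40 genes of alpha, beta and gamma subunits and RGS proteins. Genes listed for the mGluR6 cascade of ON bipolar cells and the photoreceptor cascade were kept apart. The 40 still include genes, such as Rgs9 and Gnb5, that also act in these cascades. Of these, 39 had a probe set annotated to that gene alone, out of 18193 such genes on the array. Gng5 was not analysed here, because its probe sets are annotated to a pseudogene as well. The brightest such probe set stood for its gene.

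The samples were MP amacrine cells and MP bipolar cells, sorted from papain-dissociated retinas of mice at postnatal day 6 on a mixed C57Bl6 x CD1 background. The mice were progeny of males carrying the MP transgene and females without it, and all sorted cells expressed CFP. MP amacrine cells were positive for the VC1.1 antibody, and MP bipolar cells were the VC1.1-negative cells left after magnetic depletion. Each group had 2 replicates, taken from separate litters. About 1000 cells went into each replicate, which was run on 1 Affymetrix array. The comparison asks how the G protein toolkit differs between MP-expressing amacrine and MP-expressing bipolar cells. The sources used here do not give the promoter that drives the transgene, so each group stands for the MP-labelled cells and not for all cells of its class.

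A G protein joins an alpha subunit, which binds GTP when a receptor is activated, to a beta and a gamma subunit that act as a pair. Alpha subunits of the Gs class stimulate adenylyl cyclase, those of the Gi/o class inhibit it, those of the Gq class activate phospholipase C, and those of the G12/13 class activate exchange factors for small GTPases. RGS proteins speed up GTP hydrolysis by alpha subunits and so shorten the signal. In the retina such cascades carry light responses in photoreceptors and ON bipolar cells and neuromodulator responses in amacrine cells.

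Median intensities of the 4 arrays were 44.5 to 47.2. MP amacrine replicate 2 stood apart in its Gapdh controls, with a 3-prime over 5-prime log2 ratio of 3.21, against 1.78 to 2.0 on the other arrays. Among 10 tested amacrine markers, 8 had higher intensity in MP amacrine cells and 0 lower (limma, and 9 and 0 at an unadjusted p under 0.05), among them Pax6 and Tfap2c. Of 9 tested bipolar markers, 6 were lower in MP amacrine cells and 0 higher (limma, and 7 and 1 at an unadjusted p under 0.05), among them Cabp5 and Vsx1, while the ON bipolar channel gene Trpm1 was too dim to be tested in either group. Of 7 tested Müller glia markers, 3 (Vim, Dkk3 and Slc1a3) were higher in MP amacrine cells and 0 lower (limma, and 5 and 1 at an unadjusted p under 0.05). Clu ran the other way (-0.84, not called), and Glul, the brightest of the list, had overlapping groups (0.17). The summed intensity of the list was 4279 to 4629 in MP amacrine cells, against 2243 to 2778 in MP bipolar cells. Vim, with 1672 and 1518 against 108 and 233, made up much of that difference. The part of glial RNA in the results was not tested. Rod markers had 0 of 7 tested genes called (limma, and 2 higher at an unadjusted p under 0.05), and their summed intensity was 4740 to 7416 in MP amacrine cells and 4443 to 5544 in MP bipolar cells. Of 6 tested ganglion cell markers 1, Thy1, was lower, and 3 were higher at an unadjusted p under 0.05. Of these 3, Nefm had 1631 and 136 in MP amacrine cells, against 47.7 and 35.0 in MP bipolar cells, and Nefl had 1102 and 87.5, against 68.6 and 45.7. MP amacrine replicate 1 stood apart in both, and also in the horizontal cell marker Calb1, with 517 and 39.5 against 19.2 and 17.0. Gng2, Rgs2, Gnal, Rgs19 and Gnb2, described next, kept a positive log2 fold change with either MP amacrine replicate left out. Leaving out an array does not show which cells the other array holds. The part of ganglion and horizontal cells in these values was not tested. Other lists gave 1 gene lower of 4 for endothelium (0 higher and 1 lower at an unadjusted p under 0.05), 1 higher of 6 for microglia and blood (2 and 0), 1 higher and 1 lower of 5 for cones (1 and 2), and 0 of 2 for horizontal cells (limma, and 0 at an unadjusted p under 0.05). In bulk samples, fewer cells of a type and less RNA per cell cannot be told apart.

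Of the 39 genes, 30 lay above the array median on at least 2 arrays and were tested. Each of the 30 lay above it on arrays of both groups, though Gnal, Gng2 and Gng7 did so on only 1 bipolar array. Among the 30 genes, 5 were higher in MP amacrine cells at an adjusted p under 0.05 (limma, Benjamini-Hochberg over 11583 genes), where 6.54% of all tested genes were higher. None was lower, where 6.92% of all tested genes were lower, although 1 was lower and 9 were higher at an unadjusted p under 0.05. In either direction the 5 called genes were 16.7% of those tested, against 13.5% of all tested genes, a share near the background. The 5 were the gamma subunit Gng2, the RGS genes Rgs2 and Rgs19, the alpha subunit Gnal and the beta subunit Gnb2. The median log2 fold change of MP amacrine over MP bipolar cells was 0.12 over the 30 genes and -0.03 over all tested genes. All 5 differed by at least 2-fold, as 10.3% of all tested genes did while passing the test. Fold changes were computed on log2(intensity + 16), so those of dim genes are understated.

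**Figure D1:**
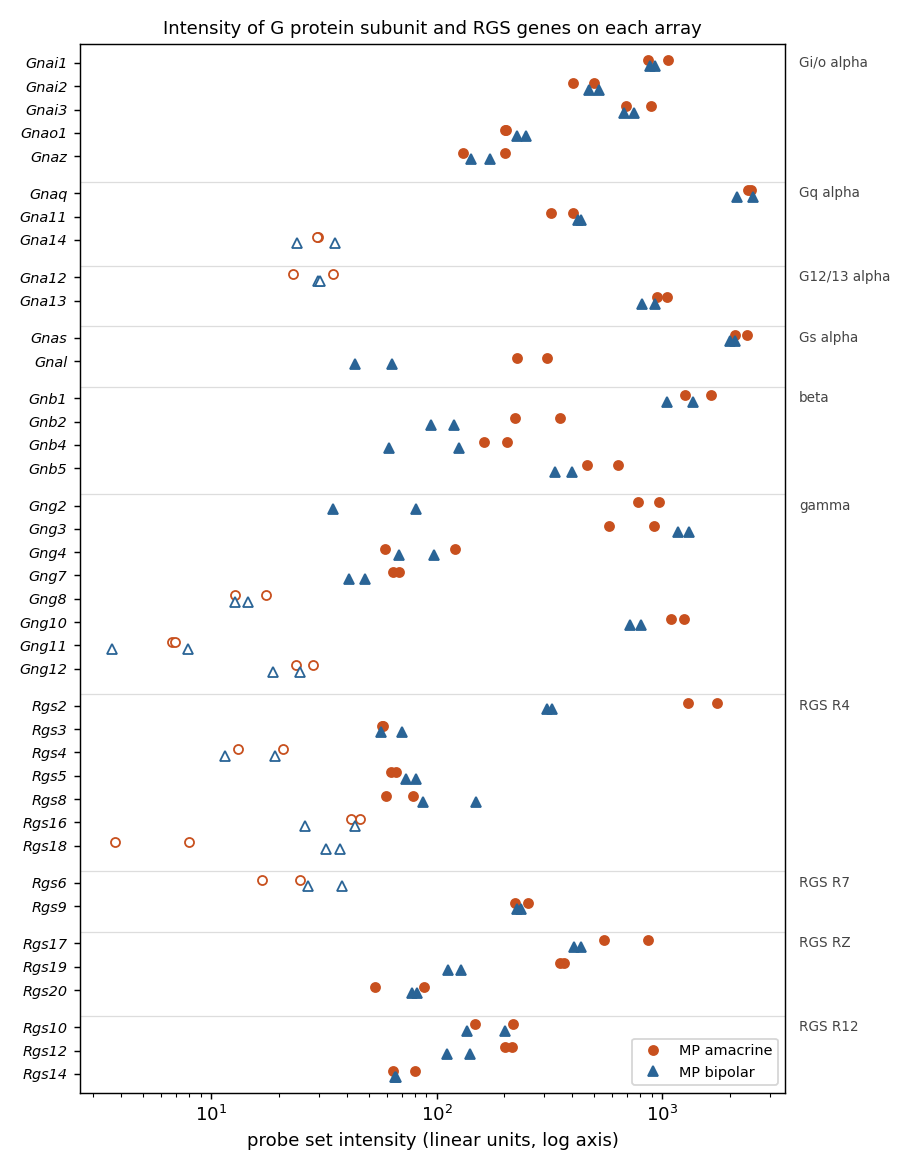
Probe set intensity on each of the 4 arrays (log axis) for the 39 genes with a probe set, grouped by class. Orange circles are MP amacrine arrays, blue triangles are MP bipolar arrays, and open symbols mark the 9 genes too dim to be tested. Gng2 and Rgs2 stand clear of the bipolar arrays, at 782 and above and 1298 and above on the amacrine arrays, while most alpha subunits overlap.

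Gng2 showed the largest difference of the group. This gamma subunit, widely used in the brain, had intensities of 966 and 782 in MP amacrine cells, against 80.8 and 34.8 in MP bipolar cells. The groups did not overlap, and the lower bipolar value lay below the median of its array. The log2 fold change was 3.66 (SE 0.33, adjusted p = 2.405e-04, limma, n = 2 per group). It lay between 3.19 and 4.12 with each array left out in turn. A further probe set above the filter gave 1.47 (adjusted p = 0.0291 over all probe sets), and a pair of dim probe sets gave 0.98 and 1.01.

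Rgs2, an R4-family member known to act mainly on Gq, had 1298 and 1748 in MP amacrine cells, against 326 and 308 in MP bipolar cells. All amacrine values were several times the bipolar values. Its log2 fold change was 2.19 (SE 0.22, adjusted p = 4.581e-04, limma). Its 3 probe sets above the filter gave 2.03 to 2.19 and all 3 were called. Rgs19, also known as GAIP, belongs to the RZ family and acts on Gi/o alpha subunits. Its intensities were 366 and 352 in MP amacrine cells, against 112 and 129 in MP bipolar cells. The replicates lay close together in both groups, and the log2 fold change was 1.46 (SE 0.22, adjusted p = 0.00307, limma). Its other probe set above the filter gave 1.65 and was also called, though both are of kinds that can match several transcripts.

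The promoter entries of these 3 genes in the RefSeq table are shown because their call held under each alternative setting that gave them a value. Each window runs from 250 bases before the start of the entry to 30 bases after it, on the minus strand of GRCm38.p6 (RefSeq), and capitals mark matches to 5 motifs searched on both strands. The motifs were the E-boxes CAGATG and CAGCTG, the palindrome of Ebf factors, the cAMP response element TGACGTCA and the Otx site TAATCC, none of which contains another. Gng2 lies at chr14:19976664-19976943, Rgs2 at chr1:144004120-144004399, and the first of 3 entries for Rgs19 at chr2:181693948-181694227. The start of the Rgs2 entry is the upstream end of the gene's annotated span, while those of Gng2 and Rgs19 lie inside the span, so other annotated starts of these genes are not covered.
Gng2: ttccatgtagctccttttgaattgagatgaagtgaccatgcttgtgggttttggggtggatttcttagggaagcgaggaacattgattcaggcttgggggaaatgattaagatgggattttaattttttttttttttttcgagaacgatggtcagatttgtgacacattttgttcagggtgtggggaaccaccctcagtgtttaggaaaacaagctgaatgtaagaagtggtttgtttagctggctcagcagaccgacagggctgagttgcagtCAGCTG
Rgs2: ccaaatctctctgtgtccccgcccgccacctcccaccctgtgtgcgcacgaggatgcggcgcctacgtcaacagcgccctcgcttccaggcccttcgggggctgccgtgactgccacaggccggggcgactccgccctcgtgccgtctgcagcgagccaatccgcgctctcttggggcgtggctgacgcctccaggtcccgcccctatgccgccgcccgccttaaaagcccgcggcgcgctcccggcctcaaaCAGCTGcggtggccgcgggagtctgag
Rgs19: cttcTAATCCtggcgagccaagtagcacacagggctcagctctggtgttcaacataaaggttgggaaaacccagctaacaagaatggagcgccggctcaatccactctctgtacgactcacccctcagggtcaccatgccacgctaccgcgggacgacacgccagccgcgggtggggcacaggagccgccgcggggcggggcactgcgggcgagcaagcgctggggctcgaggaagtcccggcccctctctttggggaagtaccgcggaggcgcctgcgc
Gng2 and Rgs2 each held 1 CAGCTG shortly after the start, beginning at base 25 and base 4 counted from the start as base 1. This motif occurred in 14.9% of the 32851 promoter windows of the table and in windows of 8 of the 32 listed genes that have an entry. A listed gene was counted if any of its entries held the motif, so counts of genes and shares of windows are unlike measures. The Rgs19 window held 1 TAATCC, which 6.77% of all windows hold. Neither the Ebf palindrome (0.868% of all windows) nor TGACGTCA (1.74%) was found in a window of the 32 genes, and CAGATG (16.1%) was found for 6 of them. A match is a description of the letters only.

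Among the alpha subunits, 1 of 10 tested was higher in MP amacrine cells and 0 lower. That was 10% called, near the 13.5% of all tested genes. Gnal encodes Golf, the Gs-class subunit best known from olfactory neurons and striatum. It had 226 and 308 in MP amacrine cells, against 43.5 and 63.3 in MP bipolar cells. Both amacrine arrays lay well above both bipolar arrays, and the log2 fold change was 2.03 (SE 0.25, adjusted p = 0.00131, limma). Its 2nd probe set had 67.9 and 194 against 33.8 and 21.6, a log2 difference of 1.62 that did not pass (adjusted p = 0.063 over all probe sets).

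Gnas, the ubiquitous Gs alpha subunit, had 2389 and 2097 in MP amacrine cells and 1998 and 2099 in MP bipolar cells. The groups overlapped, and the log2 fold change of 0.13 had a 95% interval of -0.19 to 0.44. The Gs-class genes therefore gave unequal values, one called and the other with an interval well inside a 2-fold difference. That the 2 fold changes differ was not tested.

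None of the 5 Gi/o alpha genes passed the test (limma, and 0 at an unadjusted p under 0.05), where 13.5% of all tested genes were called. Gnai1, Gnai2 and Gnai3 encode the inhibitory subunits, and Gnao1 encodes Go, which is abundant in neurons. Gnai1 had 867 and 1064 in MP amacrine cells, against 886 and 926 in MP bipolar cells. Gnai2 had 401 and 500.6, against 526 and 475, and Gnai3 had 695 and 893, against 749 and 678. The groups overlapped for all 3, with log2 fold changes of 0.08, -0.15 and 0.14. The 3 Gnai1 probe sets above the filter ran from -0.02 to 0.59, and none was called. Gnao1 had 203 and 202 in MP amacrine cells, against 250 and 228 in MP bipolar cells, so the amacrine arrays lay below. Its log2 fold change was -0.22 with a 95% interval of -0.72 to 0.27. Gnaz, a Gi/o-class subunit resistant to pertussis toxin, had 200.2 and 131 in MP amacrine cells, against 172 and 142 in MP bipolar cells (0.05, interval -0.55 to 0.65).

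In the Gq and G12/13 classes 2 genes and 1 gene were tested and none was called (limma, and 0 at an unadjusted p under 0.05), where 13.5% of all tested genes were called. Gnaq had 2416 and 2490 in MP amacrine cells, against 2160 and 2531 in MP bipolar cells, and the log2 fold change was 0.07 (interval -0.24 to 0.38). Its 6 probe sets above the filter ran from -0.21 to 0.57, and none was called. Its close relative Gna11 had 402 and 322, against 436 and 425 (-0.25, interval -0.77 to 0.28). A 2nd Gna11 probe set gave 0.42, so the sign of this gene was not settled. Gna13 had 951 and 1052, against 929 and 813 (0.20, interval -0.24 to 0.64), and its 5 probe sets above the filter ran from -0.49 to 0.51. Gna14 and Gna12 were too dim to be tested, with 23.1 to 34.9 in MP amacrine cells and 24.1 to 35.5 in MP bipolar cells.

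**Figure D2:**
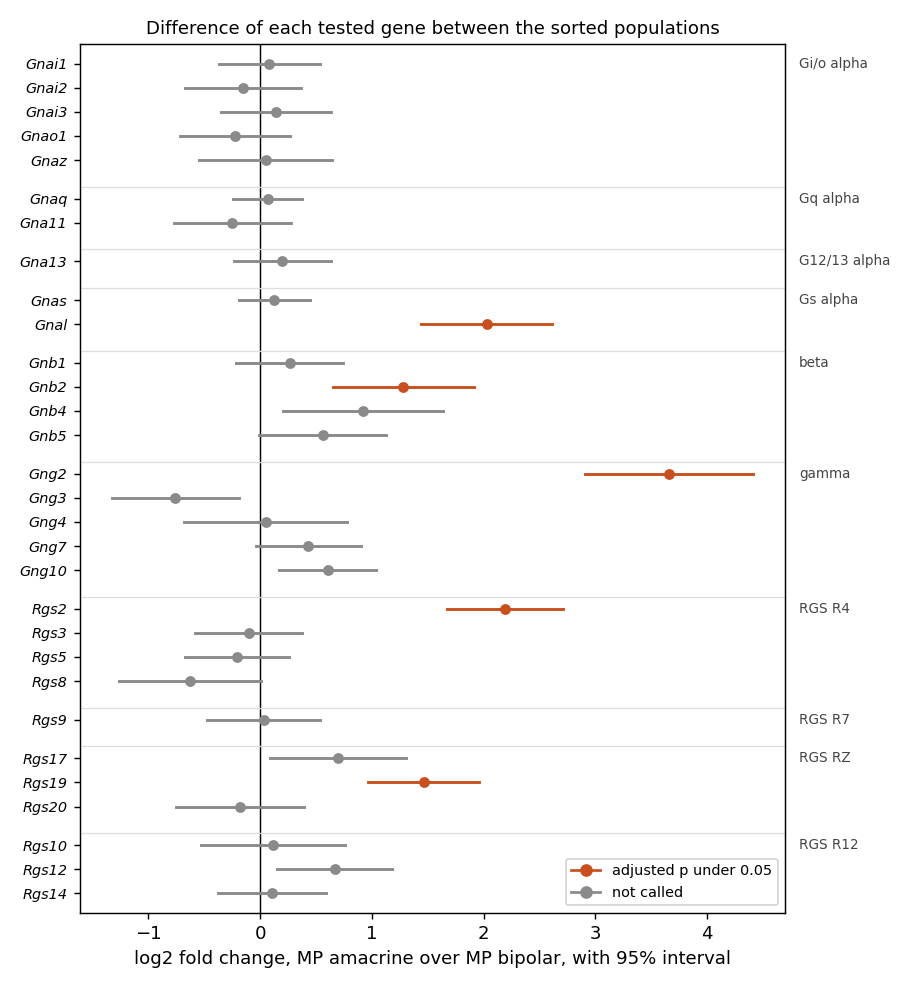
Log2 fold change of MP amacrine over MP bipolar cells for the 30 tested genes, with 95% intervals of the limma fit. Orange marks the 5 genes with an adjusted p under 0.05 and grey the 25 others. At the brightest probe set of each gene, alpha subunits other than Gnal lie near 0, while all 4 beta subunits lie to the right of 0.

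All 4 beta subunits had a positive log2 fold change, as 5353 of 11583 tested genes did. Of the 4, 1 was called, where 13.5% of all tested genes were. With the 2nd brightest probe set Gnb1 was positive (0.71), Gnb4 was negative and Gnb5 was too dim to be tested. A gene with 1 probe set kept it in this setting, so the value of Gnb2 was that of the main fit. Gnb2 had 352 and 224 in MP amacrine cells, against 119 and 94.2 in MP bipolar cells. The groups did not overlap, and the log2 fold change was 1.28 (SE 0.27, adjusted p = 0.017, limma). Without MP bipolar replicate 2 the value was 1.14 and the call was lost (adjusted p = 0.127), and 1 probe set alone measured this gene. Gnb4 had 205 and 162 in MP amacrine cells, against 61.3 and 125 in MP bipolar cells (0.92, SE 0.31, adjusted p = 0.1001). Its other probe sets above the filter gave -0.07 and 0.10, and the value was 1.36 without MP bipolar replicate 2, where the call was made (adjusted p = 0.0389), and 0.49 without MP bipolar replicate 1 (adjusted p = 0.542). Leaving out an amacrine replicate gave 0.77 and 1.08, with no call (adjusted p = 0.217 and 0.128). Gnb5 is the beta subunit that pairs with R7-family RGS proteins in place of a gamma subunit. It had 641 and 465 in MP amacrine cells, against 334 and 399.6 in MP bipolar cells (0.56, SE 0.25, adjusted p = 0.212). Gnb1, the most widely expressed beta subunit, had 1646 and 1270.4 in MP amacrine cells, against 1050.3 and 1375 in MP bipolar cells. Its groups overlapped, and the log2 fold change was 0.26 (adjusted p = 0.511).

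The gamma subunits differed among themselves. After Gng2, Gng10 had 1249 and 1095 in MP amacrine cells, against 721 and 809.9 in MP bipolar cells, and the log2 fold change was 0.60 (SE 0.19, adjusted p = 0.0806). It passed the test after quantile scaling (0.69, adjusted p = 0.0415) and after loess scaling (0.68, adjusted p = 0.0435). Gng3, a gamma subunit of neurons, was the member whose values ran the other way. It had 919 and 582 in MP amacrine cells, against 1178 and 1323 in MP bipolar cells (-0.76, SE 0.24, adjusted p = 0.0884). Both amacrine arrays lay below both bipolar arrays, and without MP amacrine replicate 1 the call was made (-1.08, adjusted p = 0.0133). Leaving out MP amacrine replicate 2 gave -0.44 (adjusted p = 0.2403), and leaving out either bipolar replicate gave no call (adjusted p = 0.198 and 0.364), so the value depends on which amacrine array is kept.

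The start of Gng3 lies 82 bases from that of Bscl2, the seipin gene, on the opposite strand. Bscl2 had 549 and 407 in MP amacrine cells, against 732 and 888 in MP bipolar cells, and the log2 fold change was -0.75 (SE 0.24, adjusted p = 0.0809). The neighbours thus had nearly equal values, and neither was called. Gng7, known for its role with Golf in striatum, had 63.8 and 67.8 in MP amacrine cells, against 41.1 and 48.3 in MP bipolar cells (0.43, SE 0.20, adjusted p = 0.241). Gng4 had 120.3 and 59.1, against 68.2 and 97.6, and its groups overlapped (0.05, adjusted p = 0.951). Gng8, Gng11 and Gng12 were too dim to be tested, with 6.68 to 28.4 in MP amacrine cells and 3.64 to 24.8 in MP bipolar cells.

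Besides Rgs2, no R4-family RGS gene was called, so 1 of 4 tested was called, where 13.5% of all tested genes were. This family holds small RGS proteins with little beyond the RGS domain. Rgs8 had 78.2 and 59.6 in MP amacrine cells, against 87.0 and 149 in MP bipolar cells (-0.63, SE 0.28, adjusted p = 0.209). Rgs3 had 57.4 and 57.8, against 56.7 and 70.1, with overlapping groups (-0.10, adjusted p = 0.831). Rgs5 had 66.1 and 63.1 in MP amacrine cells, against 80.8 and 73.2 in MP bipolar cells (-0.21, adjusted p = 0.612). That probe set is of a kind that can match several transcripts, and further, dim Rgs5 probe sets gave 0.37, 0.28 and 0.05. Rgs5 is a textbook pericyte marker. Of 10 pericyte markers on the array 1, Pdgfrb, was bright enough to be tested, and it was higher in MP amacrine cells. The summed list was 163 to 180 in MP amacrine cells and 99.5 to 132 in MP bipolar cells. Pdgfrb, with 66.0 and 69.6 against 4.01 and 9.56, made up much of that difference. The part of pericytes in the Rgs5 values was not tested.

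Rgs4, Rgs16 and Rgs18 were too dim to be tested. Rgs4 lay between 11.5 and 20.9 on the 4 arrays and Rgs16 between 26.1 and 45.8. Rgs18, known from platelets and other blood cells, had 7.97 and 3.74 in MP amacrine cells, against 32.4 and 37.1 in MP bipolar cells. The groups did not overlap, and when every gene on the array was fitted without the filter, Rgs18 was lower in MP amacrine cells (-1.22, SE 0.15, adjusted p = 0.0274, limma). Its 2nd probe set had 14.8 and 5.63, against 13.03 and 11.8, and a log2 difference of -0.14. Of 6 tested microglia and blood markers, 5 had a positive log2 fold change and 1, Csf1r, was called higher. In 3 of the 6 (Csf1r, Tyrobp and Ptprc) both amacrine arrays lay above both bipolar arrays. Groups thus lay apart in 50% of the 6, against 53.3% of all tested genes. For Tyrobp the gap was narrow, with 106.6 and 360 against 105.9 and 74.5. The summed intensity of the list was 1371 and 4340 in MP amacrine cells and 1741 and 514 in MP bipolar cells. Ctss, with 567 and 2665 in MP amacrine cells and 1003 and 2.27 in MP bipolar cells, made up much of that sum. The part of such cells in the Rgs18 values was not tested.

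The R7 family works with Gnb5 and includes Rgs9, the RGS protein of photoreceptors and striatum. Rgs9 had 222 and 254 in MP amacrine cells, against 237 and 227 in MP bipolar cells (0.03, interval -0.47 to 0.53). Rgs6 was too dim to be tested, at 24.8 and 16.8 against 26.9 and 38.2. The members of the family that belong to the mGluR6 cascade, Rgs7 and Rgs11, were lower in MP amacrine cells. Rgs7 had 122 and 116 in MP amacrine cells, against 1127 and 1301 in MP bipolar cells, and Rgs11 had 26.9 and 32.0, against 248 and 252.

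In the RZ family, Rgs17 had 866 and 551 in MP amacrine cells, against 437 and 405 in MP bipolar cells. The groups did not overlap, but the log2 fold change of 0.70 (SE 0.26) did not pass (adjusted p = 0.1402, limma). Without MP amacrine replicate 2 it did, at 1.01 (adjusted p = 0.0381), while without MP amacrine replicate 1 the value was 0.38 (adjusted p = 0.354). Leaving out either bipolar replicate gave no call (adjusted p = 0.309 and 0.438), and a 2nd probe set gave 0.53. Rgs20 had 53.2 and 87.6 in MP amacrine cells, against 78.0 and 81.6 in MP bipolar cells (-0.18, interval -0.75 to 0.39).

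The R12 family holds larger proteins with further domains. Rgs12 had 216 and 201 in MP amacrine cells, against 141 and 112 in MP bipolar cells (0.67, SE 0.22, adjusted p = 0.0965), and a 2nd probe set above the filter gave 0.95. Rgs14 had 80.2 and 64.1, against 65.8 and 65.6 (0.10, adjusted p = 0.835). Rgs10, known for its level in microglia, had 148 and 219 in MP amacrine cells, against 201 and 136 in MP bipolar cells (0.11, adjusted p = 0.866). Its highest and lowest arrays were those with the highest and lowest sum of microglia and blood markers, 4340 and 514, of which Ctss made up much, and the part of such cells in its values was not tested.

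**Figure D3:**
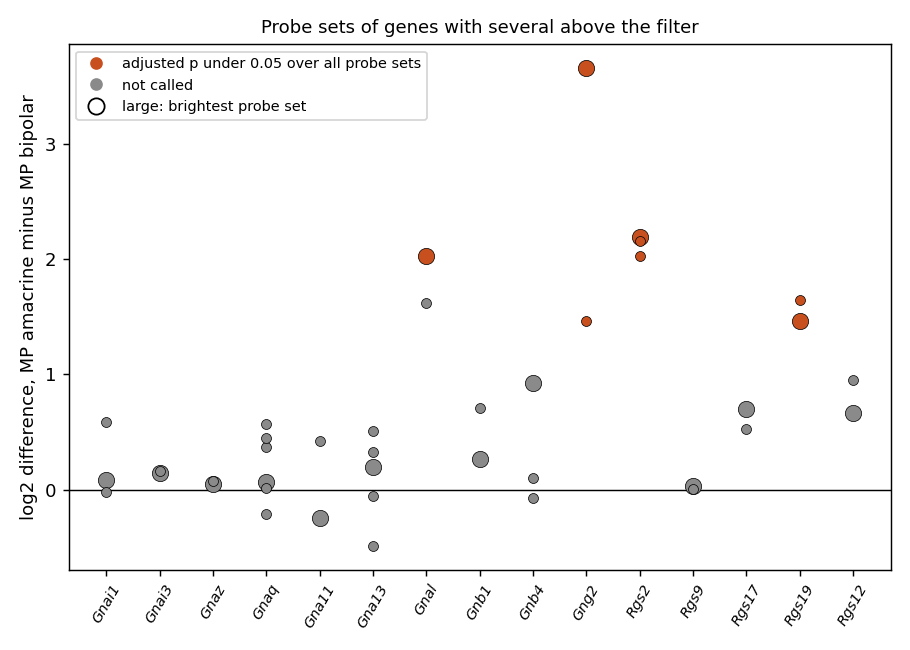
Log2 difference, MP amacrine minus MP bipolar, of every probe set above the filter for the 15 genes that had several. Large symbols are the brightest probe set, and orange marks an adjusted p under 0.05 over all probe sets. All probe sets of a gene had the same sign for 10 of the 15, among them Gng2, Rgs2, Rgs19 and Gnal.

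Across the 30 tested genes, 17 had groups that did not overlap, with the amacrine arrays above in 12 and below in 5. That was 56.7% of them, where 53.3% of all tested genes had such an arrangement. Of the 25 genes not called, 18 had a 95% interval within a log2 fold change of 1 in either direction, so differences beyond 2-fold lay outside the interval for these and not for the other 7. The number of arrays limits the precision of every value.

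Genes that act with these subunits were counted in 12 lists. Of 105 tested pathway genes, 19 were higher and 15 lower in MP amacrine cells, together 32.4%, against 13.5% of all tested genes. Their median log2 fold change was 0.13. Members of these lists were chosen with earlier results known, so the share is a description. Some called pathway genes lay above the array median only in the group where they were higher, and passed the filter through it. Cnr1, Oprl1, Pde7b and Gprin3 did so in MP amacrine cells, and Rgs11, Pkib and Pde8a, among others, in MP bipolar cells.

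Adenylyl cyclases, the effectors of Gs and Gi/o, had 3 of 8 tested genes higher and 1 lower in MP amacrine cells. Adcy1, a calcium-stimulated cyclase, had 1058 and 1305 in MP amacrine cells, against 163 and 218 in MP bipolar cells (2.54, SE 0.24, adjusted p = 3.326e-04, limma). Adcy2, which beta-gamma pairs stimulate, was higher (log2 fold change 2.08), as was Adcy6 (1.91). Adcy8, also calcium-stimulated, had 79.8 and 73.5 in MP amacrine cells, against 824 and 762 in MP bipolar cells (-3.13, SE 0.22, adjusted p = 7.228e-05, limma). The calcium-stimulated cyclases Adcy1 and Adcy8 thus lay on opposite sides.

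Downstream of cyclase, 2 of 11 tested cAMP effectors were higher and 2 lower in MP amacrine cells. The regulatory subunit Prkar2b of protein kinase A was higher (log2 fold change 1.34), while Prkar1b was lower (-2.85). The kinase inhibitors split in the same way, with Pkig higher (log2 fold change 1.17) and Pkib lower (-2.48). Of 12 tested phosphodiesterases, 3 were higher and 2 lower. Pde1c (2.35), Pde7b (2.03) and Pde8a (-1.52) and Pde10a (-1.40) had the largest changes, and Pde4d was the other gene called higher.

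Targets of beta-gamma pairs had 3 of 6 tested genes higher and 1 lower. Kcnj3, the GIRK1 potassium channel subunit, had 1541 and 1554 in MP amacrine cells, against 48.5 and 35.0 in MP bipolar cells (4.77, SE 0.23, adjusted p = 1.854e-05, limma). Kcnj9, the GIRK3 subunit, had 154 and 62.1 in MP amacrine cells, against 323 and 379 in MP bipolar cells (-1.66, adjusted p = 0.0185). Kcnj6 (-0.18) and Kcnj5 (0.01), further GIRK subunits, were not called. The calcium channel genes Cacna1a (0.92) and Cacna1b (1.10), which beta-gamma pairs inhibit, were called higher.

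Of 14 tested Gq effectors, 1 was higher and 2 were lower. Plcb4, the phospholipase C isoform prominent in retina and cerebellum, had 348 and 292 in MP amacrine cells, against 1179 and 1427 in MP bipolar cells (-1.97, SE 0.22, adjusted p = 7.217e-04, limma). The channel Trpc1 was also lower (-1.72), and the kinase Prkce was higher (1.04). None of 6 tested G12/13 effectors was called (limma, and 3 at an unadjusted p under 0.05), and Arhgef12, an exchange factor for small GTPases, was the brightest of them with 1906 and 1713 against 1678 and 1582.

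Receptors were called in both directions. Of 13 tested Gi/o-coupled receptors, 2 were higher and 0 lower in MP amacrine cells (limma, and 3 and 0 at an unadjusted p under 0.05). That was 15.4% called, near the 13.5% of all tested genes. The cannabinoid receptor Cnr1 had 191 and 895 in MP amacrine cells, against 12.3 and 19.3 in MP bipolar cells (3.78, SE 0.58, adjusted p = 0.00379, limma), and its amacrine replicates were far apart. The nociceptin receptor Oprl1 had 175 and 104 in MP amacrine cells, against 24.8 and 19.6 in MP bipolar cells (1.99, SE 0.26, adjusted p = 0.00184, limma). Oprl1 is the 2nd gene after Rgs19 in the RefSeq order of chromosome 2, with Lkaaear1 between them. Tcea2, on the other side of Rgs19, was not called (-0.22).

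The Gq-coupled receptors had 1 of 6 tested genes higher, F2r, a thrombin receptor, and 1 lower, Tacr3. F2r and Tacr3 lay far apart in opposite directions. F2r had 3011 and 3090 in MP amacrine cells, against 147 and 154 in MP bipolar cells (4.21, SE 0.19, adjusted p = 1.698e-05, limma). Among 6 tested Gs-coupled receptors, 1 was higher and 1 lower in MP amacrine cells. The dopamine receptor Drd1 had 196 and 129 in MP amacrine cells, against 2113 and 1940 in MP bipolar cells (-3.54, SE 0.25, adjusted p = 7.406e-05, limma). Golf couples this receptor to cyclase in striatum, and here Drd1 and Gnal had opposite signs. The stress hormone receptor Crhr1 was higher (1.18).

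Regulators that bind receptors or alpha subunits were called at shares near the 13.5% of all tested genes. Of 6 tested receptor kinases and arrestins, the arrestin Arrb1 was higher in MP amacrine cells (1.28, adjusted p = 0.0055, limma). Of 9 tested modulators such as Ric8 chaperones and Gpsm proteins, Gprin3 was higher (1.23, adjusted p = 0.0156), and 3 were higher and 3 lower at an unadjusted p under 0.05. The excluded mGluR6 and photoreceptor genes had 5 of 8 tested members lower and 1, the cone alpha subunit Gnat2 (1.15), higher. Gnb3, the beta subunit of ON bipolar cells and cones, was among the lower ones (-2.27). Rgs9bp, the membrane anchor of Rgs9, had 78.9 and 48.6 in MP amacrine cells, against 615 and 745 in MP bipolar cells (-3.15, SE 0.26, adjusted p = 1.723e-04, limma). Rgs9 itself, as given above, had overlapping groups, while Rgs7 (-3.18) and Rgs11 (-2.55) of the same R7 family were lower.

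**Figure D4:**
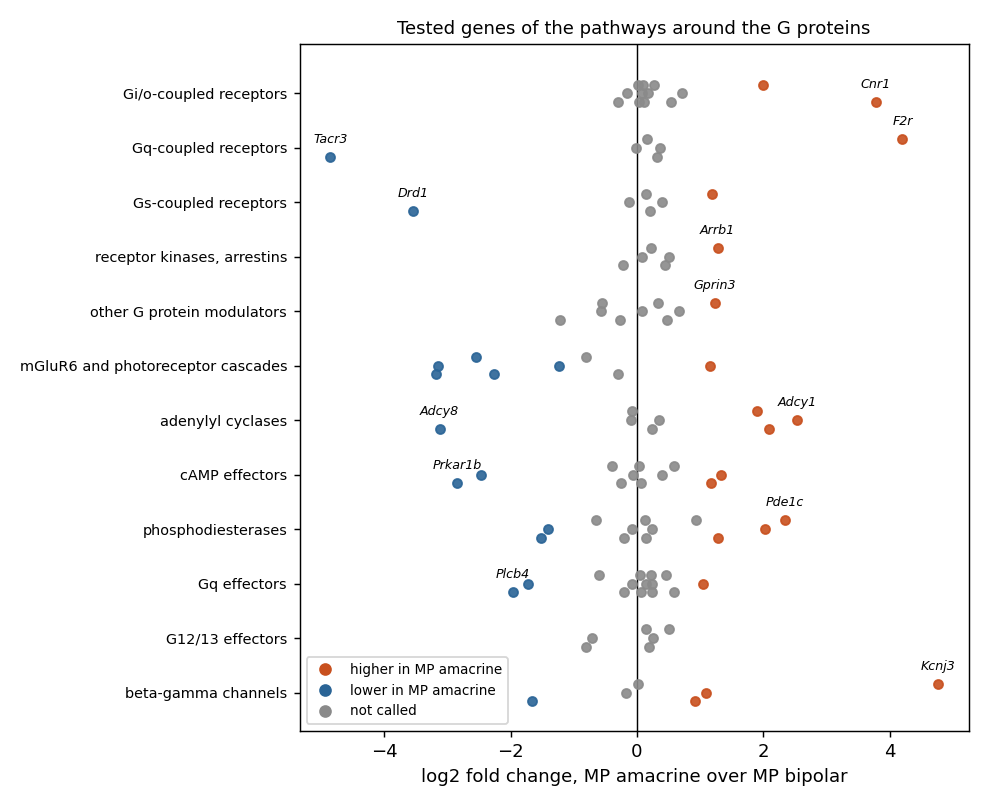
Log2 fold change of MP amacrine over MP bipolar cells for the tested genes of 12 pathway lists, 1 row per list. Orange points were called higher, blue points lower and grey points not called, at an adjusted p under 0.05. Kcnj3 and F2r lie at the right edge and Tacr3 at the left edge, and the cyclases Adcy1 and Adcy8 lie on opposite sides of 0.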

How the data were processed

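RNA from 4 samples of sorted cells was isolated (PicoPure), put through 2 rounds of amplification (MessageAmp II-biotin) and hybridised to Affymetrix arrays, per the labels' protocols. The authors deposited linear intensities of 45101 probe sets for each array. The sources used here do not give how these were summarised and scaled, and the table carries no detection calls. Array quartiles were within 0.062 of each other in log2 units, and log2(intensity + 16) was taken without further scaling.

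Control probe sets (64) were dropped. Of the others, 34945 were annotated to exactly 1 gene, and symbols were checked by gene identifier in a RefSeq table. The brightest probe set stood for each gene. A gene was tested if that probe set lay above the array median on at least 2 of 4 arrays, which held for 11583 genes. Groups were taken from the sample titles and compared with limma 3.58.1 in R 4.3.3 (lmFit and eBayes with an intensity trend, 2 residual degrees of freedom, two-sided, Benjamini-Hochberg over all tested genes, threshold 0.05). Fold changes are MP amacrine over MP bipolar, and intervals are 95% intervals of the fit. The fit was tested on simulated data.

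The listed genes, the 12 pathway lists and the marker lists were chosen with earlier results of these data known. All listed genes are named. Of each pathway list up to 4 called genes by absolute fold change are named, or the brightest tested gene where none was called. Tcea2, Bscl2, Lkaaear1, Kcnj5, Kcnj6, Pde4d, Rgs10's marker comparison and the markers named were chosen after values were seen. Alternatives were other scalings, filters, pseudocounts, probe set choices, variance moderation, array weights and thresholds, the replicate number as a block, and each replicate left out.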

Additional observations from a re-analysis of the deposited data

How the results depend on the processing

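Of the 5 called genes, Gng2, Rgs2 and Rgs19 kept their call under every alternative that gave them a value. Without the probe sets that can match several transcripts, Rgs19 had no probe set left. Gnal (1.62, adjusted p = 0.0673 with the 2nd brightest probe set) and Gnb2 (1.28, adjusted p = 0.101 without the filter, adjusted p = 0.017 at a threshold of 0.01, and 1.14 without MP bipolar replicate 2) did not. The number of members called higher was 4 to 6 over all alternatives and 5 to 6 with each replicate left out. The number called lower was 1 without the filter (Rgs18), 1 with the replicate block (Gng3) and 0 to 1 with each replicate left out (1, Gng3, without MP amacrine replicate 1). Of all calls 48.6% were higher, and 39.4% without MP amacrine replicate 1. The number of all genes called was 1559, and 785 without the filter, 830 with the 2nd brightest probe set, 883 at a threshold of 0.01, and 917 (without MP bipolar replicate 2) to 1939 (without MP amacrine replicate 1) with each replicate left out.

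The replicate numbers of the titles are not stated to mark a shared litter, and deviations of same-numbered arrays from their group means had a correlation of -0.042. With the replicate block 1932 genes were called, with 6 members higher (Gnb4 at 0.92 was added, adjusted p = 0.0261) and 1 lower (Gng3 at -0.76, adjusted p = 0.036), on 1 residual degree of freedom.

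No called gene changed sign. Among genes not called, 21 values changed sign. With the 2nd brightest probe set they were Gnai1 (-0.019), Gna11 (0.42) and Gnb4 (-0.073), and without probe sets that can match several transcripts Gnai1 (-0.019). With the mean of the probe sets they were Gnao1 (0.26), Gna11 (0.089) and Gnas (-0.25). Without MP amacrine replicate 1 the sign changed for Gnai2, Gnaz, Gng4, Rgs20 and Rgs14, without MP amacrine replicate 2 for Gnai1, Gnai3, Rgs9 and Rgs10, without MP bipolar replicate 1 for Gnaq and Gng4, and without MP bipolar replicate 2 for Gnaz, Rgs3 and Rgs10. With each replicate left out the log2 fold change ranged as follows. Gnai1 gave -0.063 to 0.23, Gnai2 -0.31 to 0.0022, Gnai3 -0.037 to 0.32, Gnaz -0.23 to 0.33 and Gnaq -0.045 to 0.18. Gng4 gave -0.38 to 0.48, Rgs3 -0.23 to 0.018, Rgs9 -0.058 to 0.12, Rgs20 -0.47 to 0.11, Rgs10 -0.15 to 0.37 and Rgs14 -0.029 to 0.24. The cause of these changes was not tested. A group left with 1 array took its spread from the other group.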
